A study of Mus musculus with 12 samples.

Results

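*Greb1* and a set of genes for the hormones of the ovary and the pituitary were followed in subcutaneous white adipose tissue (scWAT). The set held 8 of the 55401 genes in the count files: *Greb1*, the estrogen receptors *Esr1* and *Esr2*, the progesterone receptor *Pgr*, the prolactin receptor *Prlr*, and the secreted factors *Areg*, *Wnt4* and *Tnfsf11*. It was chosen by the readout itself, since *Greb1* had one of the largest falls in the mutant mice at 8°C. The other members were added for their place in the same hormone system, with earlier results of these data known. *Krt8* and *Epcam*, keratin 8 and a surface protein of epithelial cells, were read beside them as controls for epithelium. Levels at 8°C are therefore a description for every member, and the adjusted p of *Greb1* is given at 30°C alone, whose libraries did not enter the difference that chose it. In counts and medians over the members for the other comparisons, which use libraries at 8°C, *Greb1* is included as a description. The filter on low counts kept 6 of the 8 members among 16540 genes, and *Esr2* and *Tnfsf11* did not pass it.

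Estrogen acts through receptors that are transcription factors. Once estrogen is bound, ESR1 activates genes such as *Pgr* and *Greb1*, and GREB1 protein in turn binds ESR1 as a cofactor. In female mice the subcutaneous fat pad holds the mammary ducts, whose luminal cells carry ESR1, the progesterone receptor and the prolactin receptor. Amphiregulin, the product of *Areg*, is the growth factor by which estrogen drives duct growth through the EGF receptor, while WNT4 and RANK ligand, the product of *Tnfsf11*, relay the progesterone signal to neighbouring cells. ESR1 is also present in adipocytes and stromal cells of fat.

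RNA was sequenced from scWAT of female mice that were 16 weeks old when the treatment began, in 4 groups of 3 libraries. *Jmjd1a* +/+ mice (WT) and *Jmjd1a* HY/HY mice (HY), all on the C57BL/6J background, were acclimated at 30°C for 1 week and then kept for 1 week at 30°C (TN, thermoneutral) or 8°C (CE, cold exposed). HY is a knock-in carried by every cell, from 1 founder line for females, and gives a JMJD1A protein without histone demethylase activity. The stage of the estrous cycle of the mice is not given in the sources used here. The labels number the libraries and do not say that each came from a separate mouse, so the p-values measure the spread between these libraries. *Kdm3a*, which encodes JMJD1A, had 35.6 to 61.6 CPM (counts scaled to the effective library size) over the 12 libraries, and these counts do not tell the alleles apart.

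The sense-strand totals ranged from 13592629 to 26352081 counts per library. Replicate 2 of WT at 30°C stood apart by skeletal muscle transcripts, with 1091 CPM summed over 5 muscle genes against at most 20.1 CPM in the other libraries. Replicate 3 of HY at 30°C had the lowest sum of 26 mammary epithelium markers, 1321 CPM, and replicate 2 of WT at 30°C the highest, 7527 CPM. Leaving out both libraries therefore narrows the difference between genotypes in that sum at 30°C by itself. That sum was 4454 to 7527 CPM in WT and 1321 to 3587 CPM in HY at 30°C, and 2901 to 3225 CPM in WT and 1835 to 2854 CPM in HY at 8°C. The milk protein genes *Csn2* and *Wap*, 2 of the markers, had at most 2 counts in any library and 0 in 11 of 12. In bulk tissue, fewer cells of a type and less RNA per cell cannot be told apart.

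The sequences just before the transcription starts of *Greb1*, *Areg* and *Wnt4* are shown because the levels of these genes differed most between groups. They are the 250 bases of RefSeq sequence before the first listed start, 5′ to 3′ on the strand of the gene, in build GRCm38.p6 (mm10). The window of *Greb1* is chr12:16800887-16801136 on the minus strand, that of *Areg* chr5:91139349-91139598 on the plus strand and that of *Wnt4* chr4:137277385-137277634 on the plus strand. Capitals mark matches to the motifs described after the sequences.
Greb1: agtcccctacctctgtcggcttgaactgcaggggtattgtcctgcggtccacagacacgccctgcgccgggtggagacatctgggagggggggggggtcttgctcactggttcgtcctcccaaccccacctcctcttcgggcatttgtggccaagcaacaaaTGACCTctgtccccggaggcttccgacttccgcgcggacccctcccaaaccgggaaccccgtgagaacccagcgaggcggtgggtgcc
Areg: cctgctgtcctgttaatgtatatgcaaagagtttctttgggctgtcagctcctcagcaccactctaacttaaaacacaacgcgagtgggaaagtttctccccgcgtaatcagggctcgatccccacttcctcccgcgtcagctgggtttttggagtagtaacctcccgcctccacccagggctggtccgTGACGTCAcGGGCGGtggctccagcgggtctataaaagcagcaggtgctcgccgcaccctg
Wnt4: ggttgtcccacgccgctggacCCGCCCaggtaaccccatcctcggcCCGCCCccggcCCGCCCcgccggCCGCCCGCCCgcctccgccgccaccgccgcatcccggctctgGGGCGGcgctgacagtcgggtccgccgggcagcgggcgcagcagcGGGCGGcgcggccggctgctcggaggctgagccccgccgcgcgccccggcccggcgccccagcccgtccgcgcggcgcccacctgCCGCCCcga

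Each motif was searched on both strands in the 250 bases before 32851 starts. The *Greb1* window held 1 nuclear receptor half-site, AGGTCA, read here from the other strand and beginning 88 bases before the start, and 14% of all windows held at least 1. The *Areg* window held 1 cAMP response element, TGACGTCA, at 61 bases before the start, which 1.55% of windows held, next to 1 GC box, GGGCGG, at 52 bases. The *Wnt4* window held 8 GC boxes, of which those at 181 and 177 bases before the start overlap, and 32.7% of windows held at least 1. The full estrogen response element, GGTCANNNTGACC, which shares letters with the half-site, was in 0.0639% of windows and in none of the 12 windows of the 8 members, and the AP-1 site TGANTCA, in 6.75% of windows, was in 1 member window, before the third listed start of *Prlr*. A match is a description of the letters only, and response elements far from a start lie outside these windows.

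Per kilobase of exon, the order of mean levels in WT at 30°C was *Areg* (227 CPM per kb), *Prlr* (34.0), *Wnt4* (21.1), *Pgr* (13.7), *Esr1* (5.63) and *Greb1* (1.44). The ranges of *Prlr* and *Wnt4* overlapped, as did those of *Wnt4* and *Pgr*, while the other neighbours in this order did not overlap. *Krt8*, at 540 CPM per kb, and *Epcam*, at 148 CPM per kb, set the scale of the epithelial transcripts. *Greb1* was thus the scarcest of the 6 members tested.

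*Greb1* had 407, 185 and 305 counts in the WT libraries at 30°C and 17, 118 and 2 counts in the HY libraries at 30°C. At 8°C it had 52, 96 and 75 counts in WT and 0, 12 and 0 counts in HY. Every HY library lay below every WT library of its temperature, and replicate 2 was the highest of the HY libraries at both temperatures. At 8°C the lack of overlap was a condition of the ranking that chose *Greb1*, and so is no separate result. The gene is annotated at chromosome 12 from 16670615 to 16801394, and was listed as ENSMUSG00000036523.16. Its mean level was 13.8 ± 6.25 CPM (SD, n = 3) in WT and 1.61 ± 2.14 CPM (SD, n = 3) in HY at 30°C. At 8°C its mean level was 5.30 ± 1.74 CPM (SD, n = 3) in WT and 0.250 ± 0.433 CPM (SD, n = 3) in HY. In the order of these means, WT at 30°C, WT at 8°C, HY at 30°C and HY at 8°C, the libraries of each group overlapped with those of the next. The 2 HY libraries without a count allow up to 3 counts each, 0.194 and 0.243 CPM.

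At 30°C the log2 fold change of *Greb1* in HY against WT was −3.03 (SE 0.86, adjusted p = 0.0992 by the quasi-likelihood test of edgeR). The 3 libraries of each genotype did not overlap (two-sided p = 0.1 by exact permutation, below which 3 libraries against 3 cannot go). *Greb1* therefore missed the threshold at 30°C. It passed without replicate 2 of HY at 30°C (−5.05, edgeR adjusted p = 0.0382) and without the filter on low counts (edgeR adjusted p = 0.0212), and over the alternatives its adjusted p reached 0.335. At 8°C, the comparison that chose it, the difference was −4.26 (SE 1.16), and over the alternatives it ran from −9.68, without replicate 2 of HY, to −3.67. Without that replicate all HY libraries at 8°C are at 0, and a fitted value is then no bound. The mean level in CPM was 8.57-fold lower in HY at 30°C and 21.2-fold lower at 8°C, and at least 24.2-fold lower in the 2 HY libraries without a count, set at 3 counts each. The limits for a call at 8°C were no longer met when any 1 of 7 libraries was left out. The ranking there held 876 genes with an edgeR adjusted p under 0.05, a mean of at least 10 counts and every HY library below every WT library. *Greb1* stood second by size among them, after *Fgf21* at −4.74, a hormone of fasting and cold. Next came a gene without a symbol at −4.15 and *Acot12* at −4.15. From 30°C to 8°C the fitted difference of *Greb1* was −1.37 (SE 0.81) in WT and −2.61 (SE 1.21) in HY, given as descriptions. The value in HY rested on single libraries, with −0.58 without replicate 2 of HY at 30°C and −8.02 without replicate 2 of HY at 8°C. The counts of both strands together were lower than the sense counts, 288 against 407 in replicate 1 of WT at 30°C, as pairs that overlap a gene on the other strand are set aside there.

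**Figure D1:**
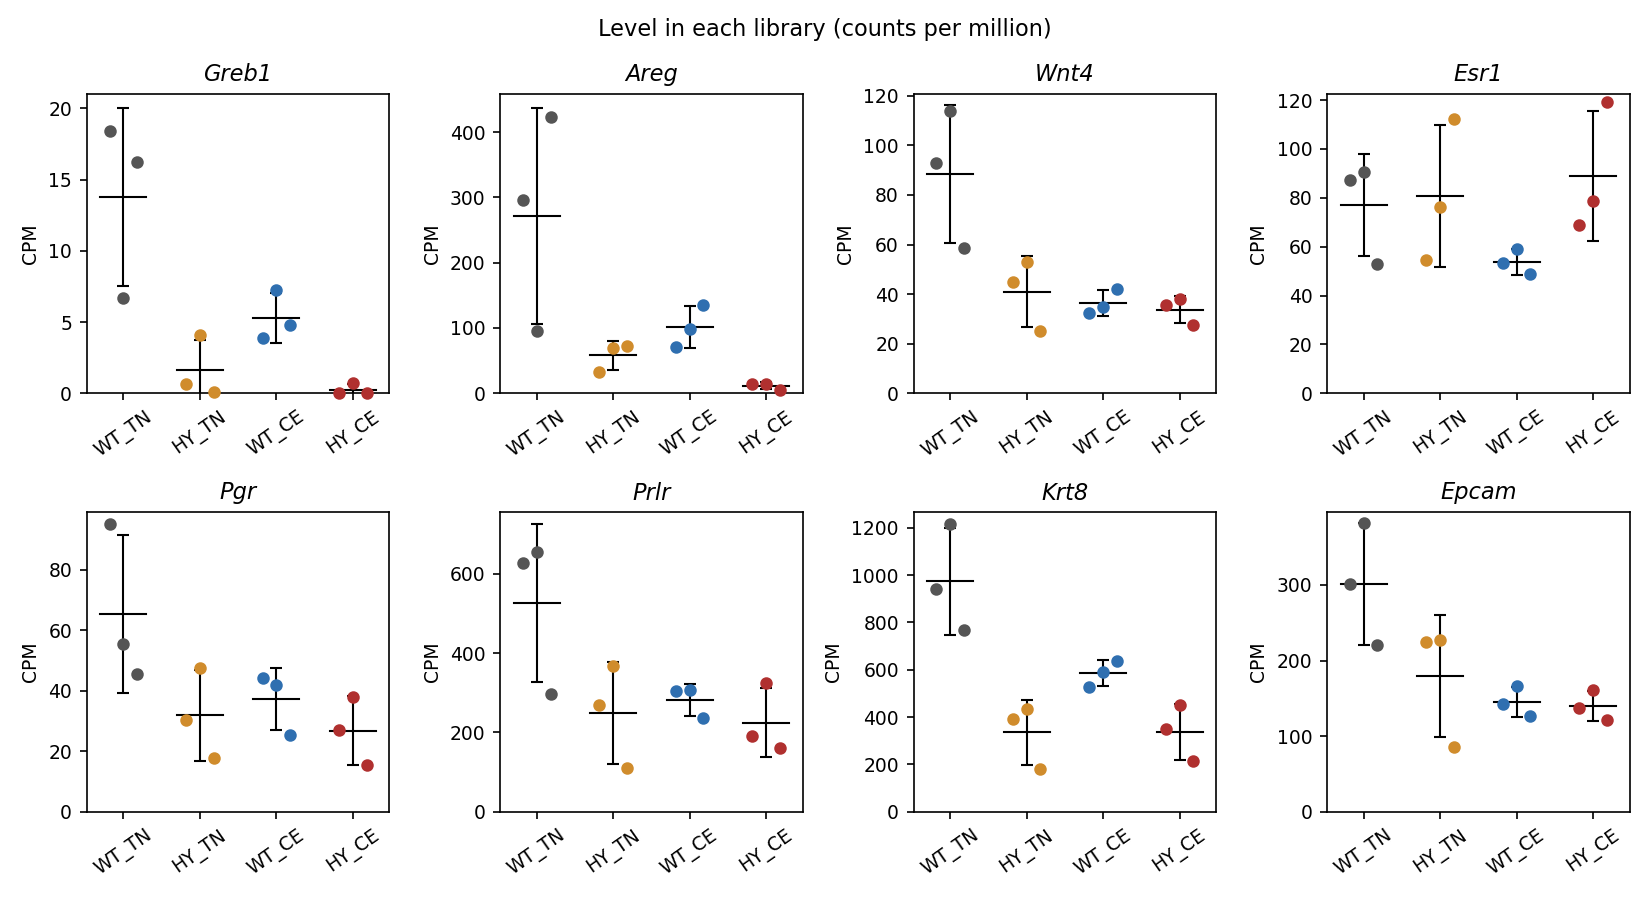
Level in CPM (linear axes from 0) of the 6 members that passed the filter and of Krt8 and Epcam, with 1 point per library, a line at the mean of each group and bars of 1 SD, cut at 0. Greb1 and Areg were lower in every HY library than in every WT library of the same temperature, whereas Esr1 was not lower in HY.

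*Areg* had 6555, 2646 and 7982 counts in WT at 30°C and 825, 2016 and 1401 counts in HY at 30°C. At 8°C it had 954, 1309 and 2101 counts in WT and 224, 229 and 63 counts in HY. Its HY libraries lay below the WT libraries of the same temperature throughout, and it was the only tested member whose libraries did not overlap between temperatures in HY. The mean level was 272 ± 166 CPM (SD, n = 3) in WT and 58.0 ± 22.6 CPM (SD, n = 3) in HY at 30°C, and 101 ± 32.0 CPM and 11.3 ± 5.36 CPM (SD, n = 3 each) at 8°C. At 30°C the log2 fold change in HY was −2.23 (SE 0.53, edgeR adjusted p = 0.0642), and by cold it was −1.42 in WT (SE 0.51, edgeR adjusted p = 0.0629) and −2.35 in HY (SE 0.55, edgeR adjusted p = 0.107). All 3 missed the threshold in edgeR, and DESeq2 called *Areg* by cold in HY (adjusted p = 0.00944) and at 30°C (adjusted p = 0.00964). Without replicate 2 of WT at 30°C, the muscle-rich library, in which *Areg* was lowest of its group, *Areg* was −2.64 at 30°C (edgeR adjusted p = 0.0486) and −1.83 by cold in WT (edgeR adjusted p = 0.0178). Without replicate 3 of WT at 30°C, it was −1.76 at 30°C (edgeR adjusted p = 0.104) and −0.95 by cold in WT (edgeR adjusted p = 0.201), and with only the libraries of the comparison the adjusted p of *Areg* at 30°C was 0.254. With replicate 2 of WT and replicate 3 of HY at 30°C both left out, the cold difference of *Areg* in HY was −2.15 (edgeR adjusted p = 0.023). In HY against WT at 8°C, the comparison behind the choice, *Areg* differed by −3.15 (SE 0.56), with no test read. *Areg* lies on chromosome 5 from 91139599 to 91148432.

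*Esr1*, which encodes the main estrogen receptor of both fat and mammary ducts, did not follow these genes. Its libraries held 53.1 to 90.7 CPM in WT and 54.5 to 112 CPM in HY at 30°C, and 48.7 to 59.0 CPM in WT and 68.9 to 119 CPM in HY at 8°C. The genotypes overlapped at 30°C, and at 8°C every HY library was above every WT library. The log2 fold change was 0.07 in HY at 30°C (SE 0.28, edgeR adjusted p = 0.928) and −0.06 with library totals alone as the scaling. It was −0.52 by cold in WT (SE 0.28, edgeR adjusted p = 0.192) and 0.14 by cold in HY (SE 0.28, adjusted p = 0.857). At 8°C HY differed from WT by 0.73 (SE 0.28), a description. *Esr2*, the other estrogen receptor, had 0 to 3 counts in every library, at or under the floor of 3 counts, so that no fold can be given for it.

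*Pgr*, a classical target of ESR1 that encodes the progesterone receptor, had 2100, 1542 and 860 counts in WT and 787, 1386 and 341 counts in HY at 30°C. At 8°C it had 595, 557 and 397 counts in WT and 417, 609 and 191 counts in HY. The cold libraries of WT lay below its libraries at 30°C, and the genotypes overlapped at both temperatures. The log2 fold change by cold in WT was −0.82 (SE 0.40, edgeR adjusted p = 0.155) and that of HY against WT at 30°C −1.03 (SE 0.40, edgeR adjusted p = 0.200). Over the alternatives the edgeR adjusted p of *Pgr* ran from 0.0229 to 0.481 by cold in WT and from 0.0357 to 0.468 at 30°C. Both lower ends came with the replicate number as a block. In HY the cold difference of *Pgr* was −0.25 (SE 0.40, edgeR adjusted p = 0.811). At 8°C the difference of HY from WT was −0.46 (SE 0.41).

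*Prlr*, the receptor by which prolactin acts on the mammary epithelium, was abundant. Its libraries held 297 to 655 CPM in WT and 111 to 367 CPM in HY at 30°C, and 235 to 306 CPM in WT and 161 to 324 CPM in HY at 8°C. The groups overlapped in each of the 4 comparisons. The log2 fold change was −0.90 by cold in WT (SE 0.41, edgeR adjusted p = 0.131), −0.15 by cold in HY (SE 0.41, adjusted p = 0.901) and −1.08 in HY at 30°C (SE 0.41, adjusted p = 0.198). At 8°C it was −0.33 (SE 0.41). Over the alternatives the edgeR adjusted p of *Prlr* ran from 0.0261 to 0.315 by cold in WT and from 0.0323 to 0.588 at 30°C. Both lower ends came with the replicate number as a block.

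*Wnt4*, which encodes a secreted WNT ligand under progesterone control in the mammary gland, was the member that passed the test. It had 2056, 3157 and 1102 counts in WT and 1163, 1542 and 482 counts in HY at 30°C. At 8°C it had 435, 462 and 657 counts in WT and 548, 610 and 342 counts in HY. The WT libraries at 30°C were above all 9 other libraries, in CPM, and the other groups lay close together. Its level fell by cold in WT from 88.5 ± 27.9 to 36.4 ± 5.09 CPM (SD, n = 3 each), a log2 fold change of −1.28 (SE 0.28, edgeR adjusted p = 0.00712), which passed in all 22 alternatives, with adjusted p from 0.000226 (DESeq2) to 0.036. In HY its cold difference was −0.28 (SE 0.28, adjusted p = 0.676). At 30°C *Wnt4* in HY differed from WT by −1.11 (SE 0.28, edgeR adjusted p = 0.0719), which without replicate 3 of WT at 30°C became −1.33 (adjusted p = 0.0461). It was −0.63 (edgeR adjusted p = 0.245) without both libraries that stood apart, which had the highest and the lowest sums of epithelium markers. With only the libraries of the comparison the edgeR adjusted p of *Wnt4* was 0.329. At 8°C the genotypes differed by −0.11 (SE 0.28), and by 0.04 with library totals alone as the scaling. *Tnfsf11*, the gene of RANK ligand, had 1 to 11 counts in WT at 30°C and at most 3 counts in each library of the other groups.

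Over the 6 members that passed the filter, the calls were few. By cold in WT 1 member, *Wnt4*, was called lower, where 6.93% of all genes were called lower and 10.3% higher, and the libraries of 2 members lay wholly below, against 22.7% of all genes. By cold in HY edgeR called 0 members, where 0.248% of all genes were called in either direction. That is 41 genes, and 160 with the replicate number as a block. An unadjusted p under 0.05 held for 1 of 6 members, *Areg*, and for 14.7% of all genes. DESeq2, which called more genes in all than edgeR, called that 1 member. The libraries of 1 member lay wholly below, against 8.99% of all genes. Between genotypes at 30°C edgeR called 0 members, where 1.00% of all genes were called. Here 5 members had an unadjusted p under 0.05, against 18.6% of all genes. The libraries of 3 members lay wholly below, against 10.6% of all genes. DESeq2, which here too called more genes in all than edgeR, called 2 members, *Areg* and *Wnt4*. At 8°C 2 members, *Greb1* and *Areg*, met the limits for a call, where 4.42% of genes were called lower and 1.51% higher and where the libraries of 19.0% of genes lay wholly below, and nothing is read from that count because the comparison chose *Greb1*.

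The median log2 fold change of the 6 members was −1.09 by cold in WT, −0.27 by cold in HY, −1.09 in HY at 30°C and −0.40 in HY at 8°C. Over all genes these medians were −0.07, −0.01, −0.01 and 0.01. The cold response of HY minus that of WT was called in 0 members by edgeR and in 0 by DESeq2, where 2.24% of all genes were called by edgeR. An unadjusted p under 0.05 held for 1 of 6 members, *Wnt4*, and for 15.0% of all genes, so this count is near the background. The cold response of HY minus that of WT was −1.24 (SE 1.49) for *Greb1*, −0.93 (SE 0.73) for *Areg*, 0.66 (SE 0.39) for *Esr1*, 0.57 (SE 0.57) for *Pgr*, 0.75 (SE 0.58) for *Prlr* and 1.00 (SE 0.39) for *Wnt4*. Comparisons that share a group share its libraries, so these values are not independent of each other. The WT libraries at 30°C enter both comparisons whose median was −1.09.

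**Figure D2:**
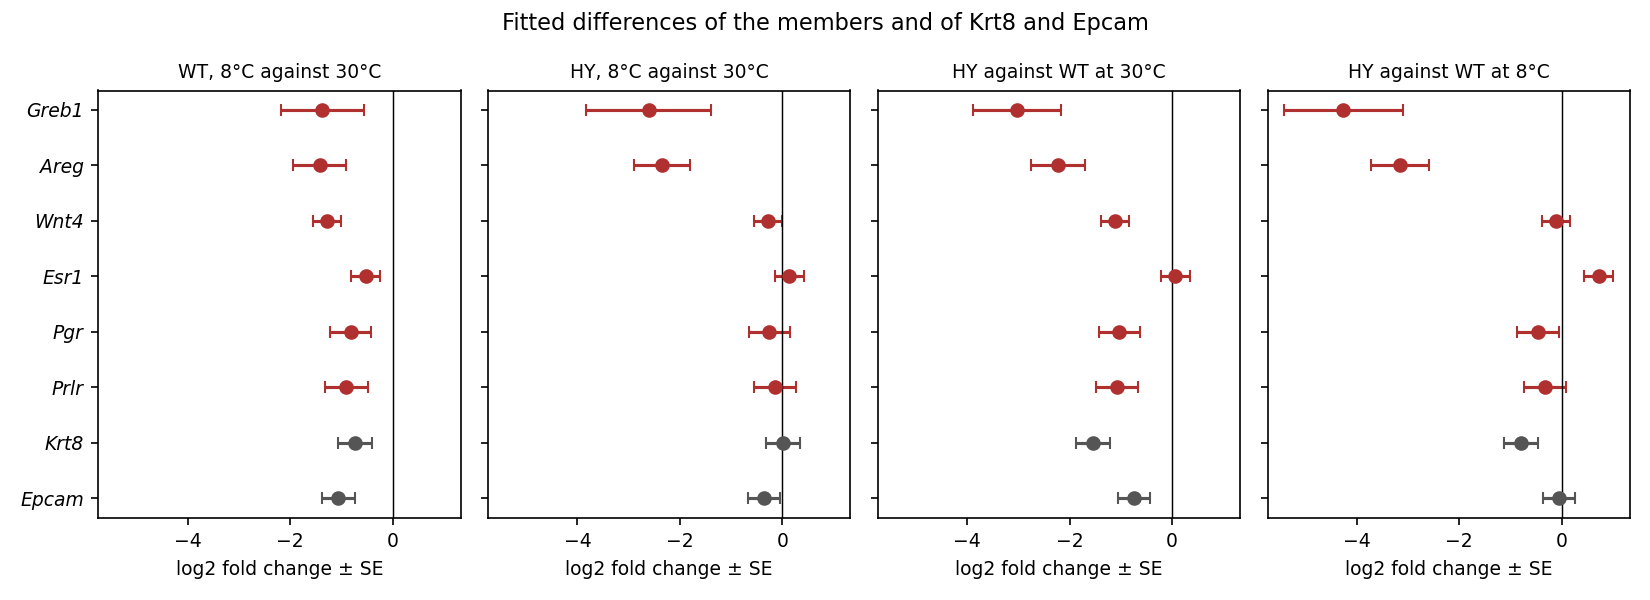
Fitted log2 fold changes (x axis) with bars of 1 SE for the 6 members tested (red) and for Krt8 and Epcam (grey), 1 panel per comparison. Greb1 and Areg lay furthest to the left in HY against WT at 8°C, at −4.26 and −3.15, where Wnt4 was at −0.11 and Epcam at −0.05.

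The epithelium controls also differed between groups, and not alike. *Krt8* had 942, 1215 and 767 CPM in WT and 392, 435 and 179 CPM in HY at 30°C, and 528, 592 and 637 CPM in WT and 349, 450 and 216 CPM in HY at 8°C. Its HY libraries were below its WT libraries at both temperatures. *Epcam* held 221 to 382 CPM in WT and 85.8 to 227 CPM in HY at 30°C, and 127 to 166 CPM in WT and 121 to 160 CPM in HY at 8°C. *Epcam* fell by cold in WT (log2 fold change −1.06, SE 0.32, edgeR adjusted p = 0.0312). Between genotypes at 30°C, *Krt8* differed by −1.54 (SE 0.33, edgeR adjusted p = 0.0519) and *Epcam* by −0.75 (SE 0.31, edgeR adjusted p = 0.23), and at 8°C by −0.79 (SE 0.33) and −0.05 (SE 0.31). Counts of *Krt8* per 1000 *Epcam* counts were 3130 to 3479 in WT and 1746 to 2086 in HY at 30°C, and 3572 to 5022 in WT and 1777 to 2803 in HY at 8°C, so the choice of control bears on every ratio between genotypes.

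Of the 24 mammary epithelium markers tested, 9 were called lower by cold in WT, among them *Krt19*, *Cldn3*, *Cldn7*, *Elf5* and *Prom1*, and their median log2 fold change was −1.01. In the cold comparison of HY 0 of them were called by edgeR and the median was −0.16. At 30°C 1 was called lower in HY, *Krt19*, with a median of −0.81. At 8°C the median was 0.02 with 0 called, and the markers went both ways. *Krt8*, *Krt18*, *Krt7* and *Krt19* (−0.57 to −0.87) were lower in every HY library than in every WT library. *Krt5*, *Krt14*, *Krt17*, *Trp63*, *Elf5*, *Ehf*, *Csn3* and *Wfdc18* (0.25 to 1.04) were higher in every HY library. Without replicate 2 of WT and replicate 3 of HY at 30°C, 11 markers were called lower and 2 higher by cold in WT. By cold in HY 6 were then called lower and 1 higher. Between genotypes 3 were then called higher and 0 lower in HY at 30°C, and 3 lower and 3 higher in HY at 8°C. The 3 markers higher in HY at 30°C then were the basal keratins *Krt5*, *Krt14* and *Krt17*. With all libraries kept, *Krt5* (−1.57, SE 1.22) and *Krt14* (−1.42, SE 1.16) were lower there and *Krt17* (0.715, SE 0.81) was higher, none of them called. The direction of *Krt5* and *Krt14* thus turned with these libraries. With the replicate number as a block and all libraries kept, 14 markers were called lower by cold in WT and 0 by cold in HY. Between genotypes the block gave 7 lower in HY at 30°C and 2 lower at 8°C, and 0 markers were higher in any of these comparisons. The part of epithelium in the levels of the members was not tested beyond the ratios that follow.

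Relative to *Epcam*, the members fell into separate patterns. Counts of *Wnt4* per 1000 *Epcam* counts ranged from 200 to 332 over the 12 libraries. The coefficient of variation of *Wnt4* over all libraries was 54.4% in CPM and 16.3% per *Epcam* count. For *Prlr* it went from 51.9% to 20.4% and for *Pgr* from 52.6% to 28.7%. These 3 genes thus varied less per *Epcam* count than in CPM. For *Esr1* the coefficient was larger per *Epcam* count, 69.0% against 31.3%. For *Areg* it was 114% in CPM and 97.5% per *Epcam* count, and for *Greb1* 119% and 105%.

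*Wnt4* per *Epcam* count did not separate the temperatures in WT (difference of mean log2 ratios −0.21, SE 0.21, exact permutation test, two-sided p = 0.4) or the genotypes at 30°C (−0.28, SE 0.17, exact p = 0.2). Per *Krt8* count, *Wnt4* was lower by cold in WT (−0.52, SE 0.12, exact permutation p = 0.1, the smallest possible) and higher in HY than in WT at 30°C (0.49, SE 0.14, exact permutation p = 0.1), with no overlap in either. The direction of *Wnt4* between genotypes at 30°C thus turned with the control. For *Esr1* each separation by cold in WT or between genotypes at 30°C held with 1 control. By cold in WT its difference was 0.54 (SE 0.10, exact permutation p = 0.1) per *Epcam* count and 0.23 (SE 0.18, exact p = 0.2, with overlap) per *Krt8* count. In HY at 30°C it was 1.66 (SE 0.69, exact permutation p = 0.1) per *Krt8* count and 0.89 (SE 0.75, exact p = 0.2, with overlap) per *Epcam* count. At 8°C the genotypes did not overlap in *Esr1* with either control. As a description, HY was higher there by 0.74 (SE 0.33) per *Epcam* count and by 1.54 (SE 0.54) per *Krt8* count.

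*Greb1* counts per 1000 *Epcam* counts were 61.2, 17.5 and 73.4 in WT and 2.93, 17.9 and 1.21 in HY at 30°C. At 8°C the ratios of *Greb1* were 27.2, 43.6 and 37.9 in WT and 0, 4.67 and 0 in HY. At 30°C replicate 2 of WT and replicate 2 of HY met at almost the same ratio, and the other libraries stayed apart. The difference at 30°C was −3.02 on the log2 scale (SE 1.11, exact permutation test, two-sided p = 0.2) per *Epcam* count and −2.25 (SE 1.11, exact p = 0.2) per *Krt8* count. The log2 ratios used a prior count of 2. The WT and HY ratios of *Greb1* did not overlap at 8°C with either control.

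*Areg* per 1000 *Epcam* counts ranged from 250 to 1921 in WT and from 142 to 848 in HY at 30°C, and from 498 to 1062 in WT and from 42.1 to 106 in HY at 8°C. At 30°C the genotypes overlapped (−1.23, SE 1.14, exact permutation test, two-sided p = 0.4). In HY the cold ratio of *Areg* was lower without overlap (−2.16, SE 0.85, exact permutation p = 0.1, the smallest possible), and in WT it was not (−0.20, SE 0.93, exact p = 1). At 8°C the log2 ratio of *Areg* in HY differed from that in WT by −3.20 (SE 0.52) per *Epcam* count and by −2.40 (SE 0.30) per *Krt8* count. Of 32 such tests over the members, comparisons and both controls, 6 reached p = 0.1, and the smallest Benjamini-Hochberg adjusted value of these exact permutation tests was 0.457.

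**Figure D3:**
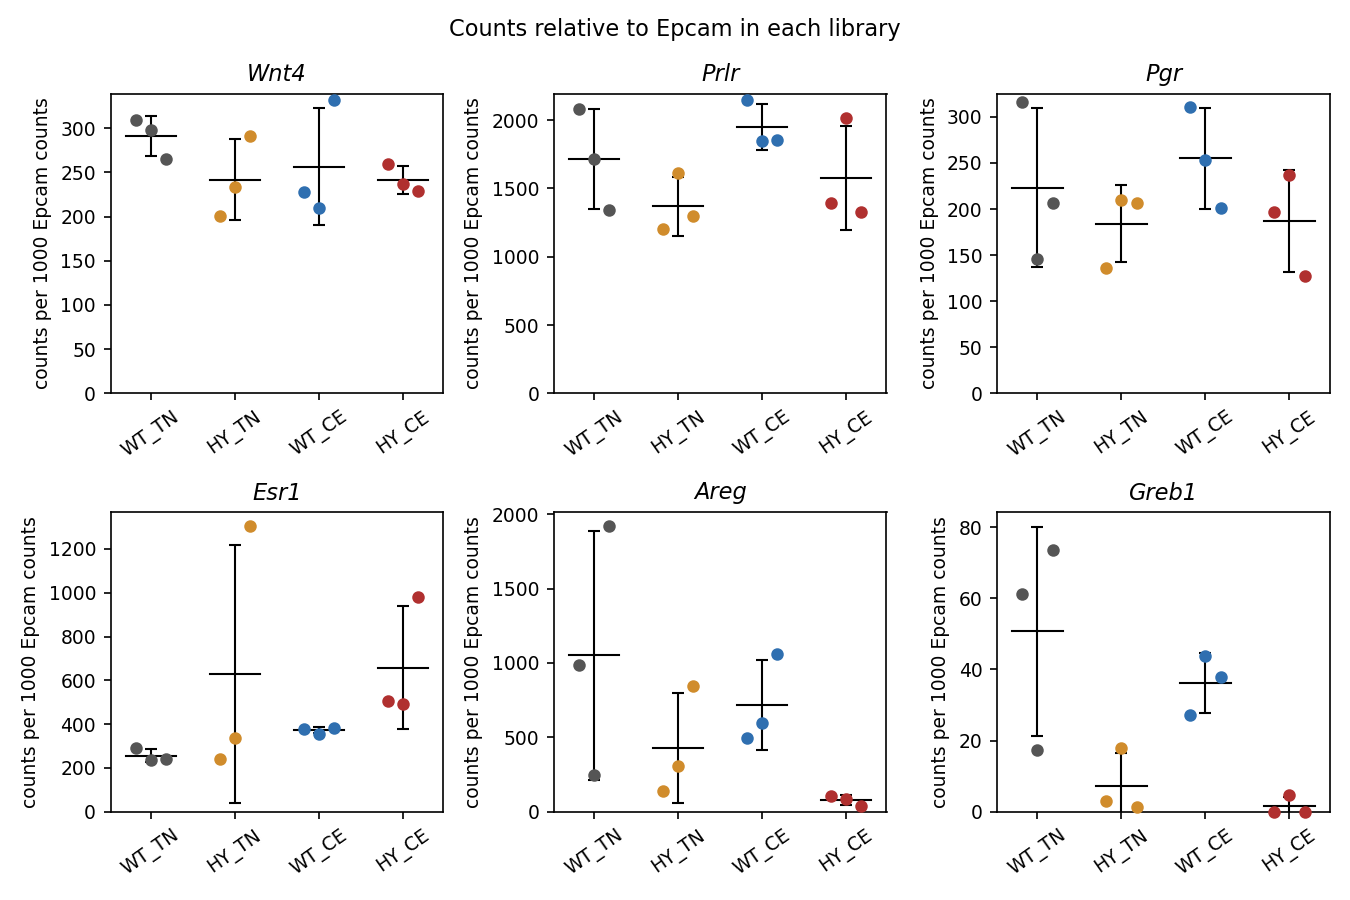
Sense-strand counts of 6 members per 1000 Epcam counts (linear axes from 0), with 1 point per library, group means as lines and bars of 1 SD, cut at 0. Wnt4 stayed between 200 and 332 in all 12 libraries, while the HY libraries at 8°C were at 42.1 to 106 for Areg and 0 to 4.67 for Greb1.

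Over the 12 libraries, which share their depth and the group differences, the log2 CPM of *Wnt4* followed that of *Epcam* with Pearson's r of 0.937 (Spearman's rho 0.874), and *Prlr* followed it with r of 0.918 (rho 0.874) and *Pgr* with r of 0.814 (rho 0.895). *Esr1* did not (r −0.099, rho −0.042). *Greb1* followed *Krt8* (r 0.864) more closely than *Epcam* (r 0.646). *Greb1* and *Areg* had r of 0.859 (rho 0.862), which was 0.352 once the mean of each group was subtracted, so that the relation of *Greb1* and *Areg* lay mostly between groups. *Pgr* and *Prlr*, by contrast, kept r of 0.855 within groups, against 0.921 in all. These are descriptions with n = 12 and no test.

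**Figure D4:**
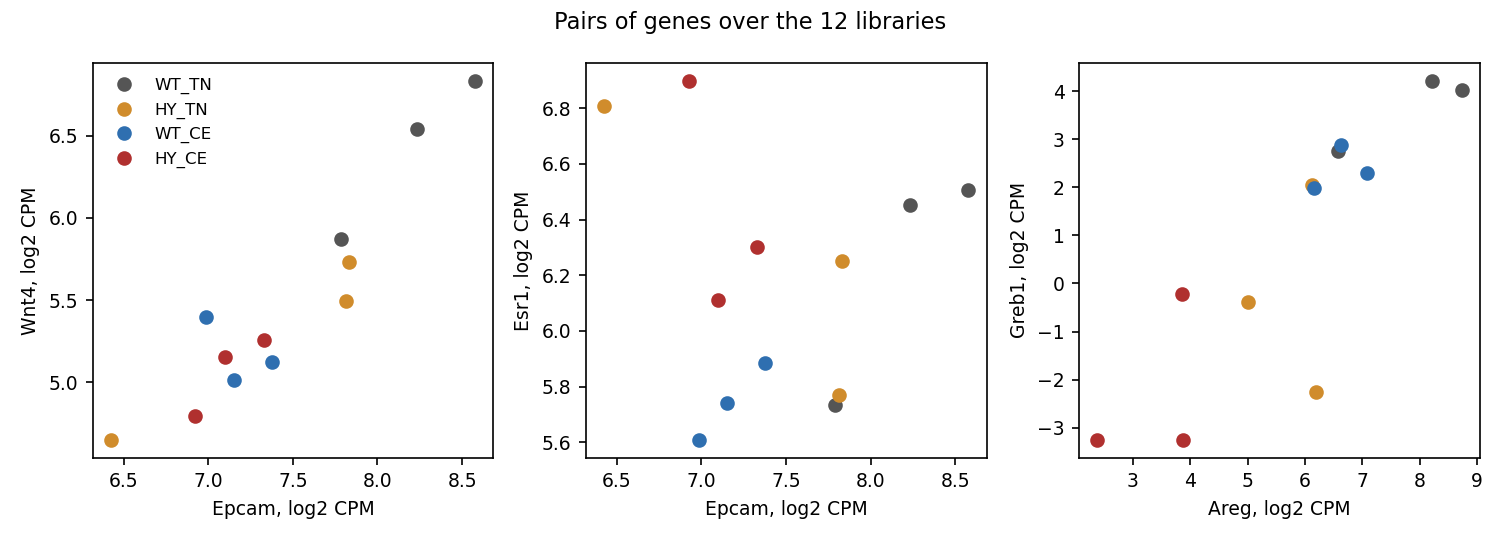
Log2 CPM (prior count 2) of Wnt4 against Epcam, Esr1 against Epcam and Greb1 against Areg, with 1 point per library and colours for the 4 groups. Wnt4 rises along Epcam (r 0.937), Esr1 does not (r −0.099), and the HY libraries at 8°C lie lowest in Areg.

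The genes whose levels were most like that of *Greb1* were sought among the 14586 genes that averaged 10 or more counts, by Pearson's r over the 12 libraries. The closest was *Rab3ip*, which encodes an exchange factor for RAB8 in vesicle transport, with r of 0.985. It held 62.5 to 66.8 CPM in WT and 32.0 to 48.2 CPM in HY at 30°C, and 52.8 to 56.7 CPM in WT and 30.5 to 42.3 CPM in HY at 8°C. As the choice by r favours, it was highest in replicate 2 among the HY libraries at both temperatures like *Greb1*, and its levels varied far less. *Kif5c*, a kinesin motor (r 0.947), *Syn2*, a synapsin (r 0.944), and *Atf3*, a stress-induced transcription factor (r 0.943), came next, followed by *Faim2* (0.941), *Accn1* (0.941), *AI118078* (0.940) and *Erf* (0.934). With group means subtracted, the order was *Rab3ip* (0.984), *4930471M23Rik* (0.944), *AI118078* (0.944), *Fam110a* (0.924) and *Atf3* (0.920). *Rab3ip*, *AI118078* and *Atf3* stood in both lists.

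**Figure D5:**
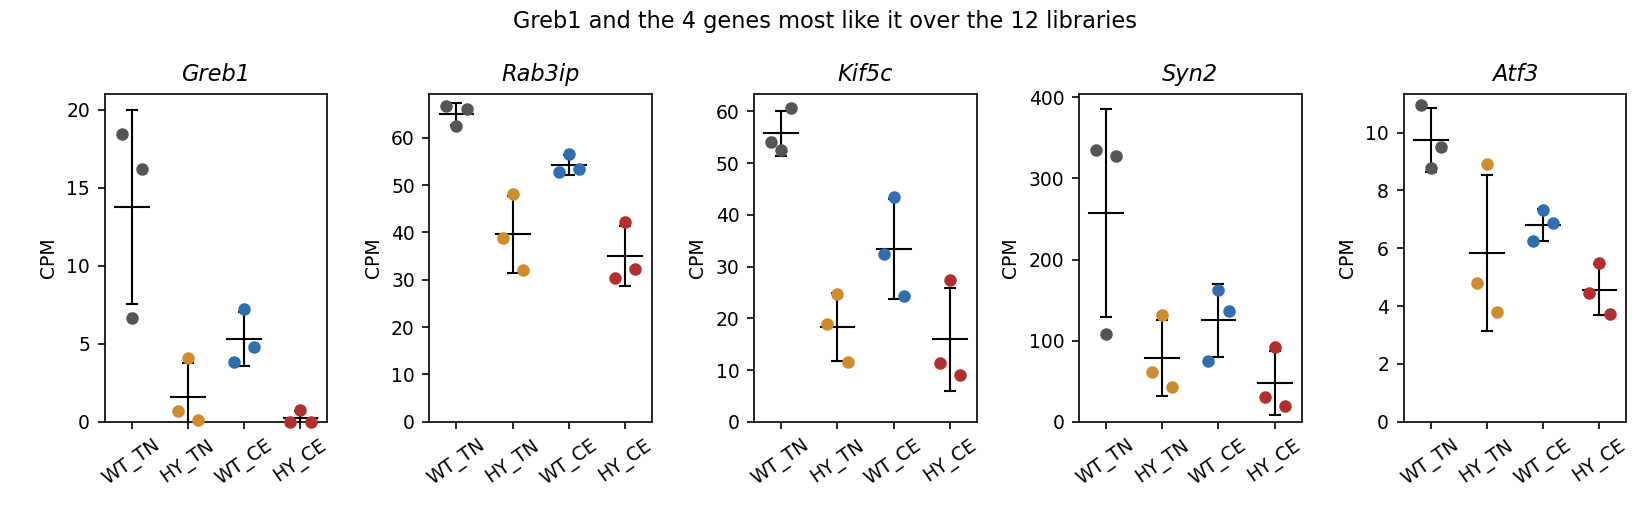
Level in CPM (linear axes from 0) of Greb1 and of the 4 genes with the highest Pearson's r to it over the 12 libraries, with 1 point per library, group means as lines and bars of 1 SD, cut at 0. In all 5 genes replicate 2, the middle point, was the highest HY library at both temperatures, a likeness that follows from how the 4 genes were picked.

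Among the partners of the estrogen receptor, 18 genes were tested. By cold in WT, *Gata3*, a luminal transcription factor, fell (log2 fold change −1.61, SE 0.39, edgeR adjusted p = 0.0129) and *Phb2*, a prohibitin that represses the receptor and also serves mitochondria, rose (0.74, SE 0.13, edgeR adjusted p = 0.00244). *Foxa1*, which opens chromatin for ESR1, was at −1.05 (SE 0.41, edgeR adjusted p = 0.0815). Between genotypes at 30°C and by cold in HY edgeR called 0 of the 18, and at 8°C *Phb2* alone was called, lower by −0.67 (SE 0.13). The coactivators *Ncoa1*, *Ncoa2* and *Ncoa3* were in no case called.

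Of 19 further estrogen target genes tested, 3 rose and 1 fell by cold in WT. *Sgk1*, a kinase (0.90, SE 0.16, edgeR adjusted p = 0.00222), *Ctsd*, cathepsin D (0.70, SE 0.20, adjusted p = 0.0287), and *Cxcl12*, a chemokine (0.65, SE 0.16, adjusted p = 0.0139), rose, and *Xbp1*, a factor of the secretory pathway, fell (−0.91, SE 0.20, adjusted p = 0.00841). In the cold comparison of HY and between genotypes at 30°C edgeR called 0, and with the replicate number as a block *Sgk1* was called higher by cold in HY. At 8°C 1 was called, *Igf1*, higher in HY by 1.15 (SE 0.24). The median of the list lay between −0.22 and 0.11 in the 4 comparisons, near the medians of all genes. Without the 2 libraries that stood apart at 30°C, 1 rose and 3 fell by cold in WT, 2 rose by cold in HY and 4 were higher in HY at 8°C.

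Genes that make or break down steroids were tested in 12 cases. *Cyp19a1*, the aromatase that makes estrogen, and *Sult1e1*, which inactivates it by sulfation, had 0 counts in every library, which allows up to 3 counts per library. *Hsd17b12* (1.70, SE 0.17, edgeR adjusted p = 7.14e-05) and *Hsd17b4* (0.95, SE 0.19, edgeR adjusted p = 0.00403), enzymes of the 17β-hydroxysteroid dehydrogenase family that also act on fatty acids, rose by cold in WT. In HY 0 of the 12 were called by cold, and with the replicate number as a block *Hsd17b12* and *Hsd17b4* were. At 8°C *Cyp1b1*, which oxidises estrogen, and *Akr1c14*, a 3α-hydroxysteroid dehydrogenase, were called higher in HY, by 1.24 (SE 0.30) and 0.89 (SE 0.18).

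Of 9 other steroid and orphan nuclear receptors, *Esrra*, the receptor ERRα that drives mitochondrial genes, rose by cold in WT (1.22, SE 0.21, edgeR adjusted p = 0.00192) and was called lower in HY at 8°C, by −0.90 (SE 0.21). *Esrrb* fell by cold in WT (−2.01, SE 0.64, edgeR adjusted p = 0.0405) and was lower in HY at 30°C (−3.22, SE 0.67, edgeR adjusted p = 0.046), and neither call of *Esrrb* held without the 2 libraries that stood apart. *Greb1l*, the paralog of *Greb1*, was called in none of the comparisons (−0.62, SE 0.34, edgeR adjusted p = 0.357 in HY at 30°C).

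In prolactin receptor signalling, 4 of 13 genes fell by cold in WT. *Stat5a*, the transcription factor downstream of the receptor (−0.75, SE 0.24, edgeR adjusted p = 0.0386), *Socs3*, a feedback inhibitor (−1.03, SE 0.24, adjusted p = 0.00935), *Ptpn1*, a phosphatase (−0.67, SE 0.19, adjusted p = 0.0266), and *Elf5*, a target factor of the alveolar lineage (−1.01, SE 0.33, adjusted p = 0.0437), fell. *Prl*, the gene of prolactin itself, had 0 counts in every library. EdgeR called 0 by cold in HY and at 30°C, and at 8°C 1 was called, *Ghr*, the growth hormone receptor, higher in HY by 1.39 (SE 0.31).

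Among 12 ligands and receptors of the EGF receptor family, *Erbb2* (−1.04, SE 0.31, edgeR adjusted p = 0.0298) and *Erbb3* (−1.16, SE 0.33, adjusted p = 0.0257) fell by cold in WT. *Egfr*, the receptor of amphiregulin, was called higher in HY at 8°C, by 1.01 (SE 0.20), in the comparison in which its ligand was lower. Of 21 Wnt genes *Wnt4* alone was called by cold in WT, and *Lgr4*, a receptor of R-spondins, was called higher in HY at 8°C by 0.73 (SE 0.19). In the RANK ligand system 0 of 4 genes tested were called in any comparison in the main edgeR fit. *Tnfrsf11a*, the receptor RANK, was at 0.22 (SE 0.29, edgeR adjusted p = 0.615) by cold in WT and at 0.76 (SE 0.28, edgeR adjusted p = 0.18) in HY at 30°C. At 8°C *Tnfrsf11a* was higher in HY by 0.81 (SE 0.28), with no overlap of the libraries. It was called higher there by edgeR without the 2 libraries that stood apart at 30°C.

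Markers of other cells of the fat pad differed between HY and WT at 8°C as well. Of 6 beige adipocyte markers 5 were called lower in HY, *Ucp1* among them. Of 6 stromal progenitor markers 2 were called higher, *Dcn* and *Lum*. The others were not called and went both ways, with *Pdgfra* at 0.85 (SE 0.25), *Dpp4* at 0.34 (SE 0.59), *Cd34* at −0.52 (SE 0.23) and *Pi16* at −0.70 (SE 0.81). Called higher too were 2 of 5 macrophage markers, *Csf1r* and *Mrc1*, and 2 of 7 white adipocyte markers, *Lep* and *Retn*. Of all genes 4.42% were called lower and 1.51% higher in this comparison. *Esr1* had r of 0.165 with the summed stromal markers, 0.182 with the summed white adipocyte markers and −0.522 with the summed endothelium markers over the 12 libraries. The other members tested had negative r with the first 2 of these sums. It ran from −0.745 (*Areg*) to −0.185 (*Wnt4*) with the stromal sum and from −0.811 (*Prlr*) to −0.333 (*Areg*) with the white adipocyte sum. The part of these cells in the levels of the members was not tested.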

How the data were processed

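Total RNA of scWAT was sequenced in 12 libraries as paired 50-base reads. By the methods and the labels, the authors checked reads with FastQC, trimmed them with fastp, aligned them with STAR to mm10 and estimated FPKM with StringTie. The deposited files hold raw counts per gene in 3 columns, both strands together and each strand alone. The sense-strand counts were used here, 36.5 to 44.2% of all read pairs. The 4 entries that name no gene were left out: unmapped pairs were 25.1 to 28.8%, multi-mapping pairs 26.7 to 32.2%, pairs outside genes 1.99 to 3.20% and ambiguous pairs 0.930 to 1.10%. Groups came from the labels.

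Counts of 16540 genes that passed filterByExpr were fitted in 1 model of the 4 groups with edgeR 4.0.16 (quasi-likelihood test, TMM scaling, 8 residual degrees of freedom) in R 4.3.3, with Benjamini-Hochberg adjustment over all of them. A call needed an adjusted p under 0.05 and a fold over 1.5 or under 0.67, and for the difference of cold responses the adjusted p alone. The quasi-likelihood test estimated the spread gene by gene. The common dispersion over all genes, given for scale, corresponded to a coefficient of variation of 20.7% between libraries. Ratios to *Epcam* or *Krt8* were compared by exact two-sided permutation tests. DESeq2 1.42.0, other scalings, filters and strands, the replicate number as a block, and leaving out libraries were the alternatives. The code was tested on simulated data. Exon lengths for levels per kilobase came from an older GENCODE release on build mm9.

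The members and the gene lists were chosen with earlier results of these data known. The genes named were the members, the controls, called genes of the hormone lists, *Kdm3a*, the neighbours of *Greb1* in the ranking that chose it, and the genes most like *Greb1* by Pearson's r. *Foxa1*, *Greb1l*, *Tnfrsf11a*, other genes named without a call, and *Cox7a1* were added after their values were seen. Same-numbered libraries deviated together most regularly by cold in HY, where the correlations of the pairs were 0.112, 0.199 and 0.303. There 6 of 6 libraries correlated best with their own number. By cold in WT and between genotypes at 8°C 4 of 6 did, and between genotypes at 30°C 2 of 6. The largest single correlation, 0.346, was that of replicate 3 between genotypes at 30°C. Any such pairing is read from the data and not given by the labels. No protein sequences are shown, and some genes of the lists are not reported here.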

Additional observations from a re-analysis of the deposited data

Results flagged for a closer look

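The cold responses of the genotypes differed in *Cox7a1*, a beige adipocyte marker that encodes a subunit of cytochrome c oxidase in muscle and thermogenic fat. Cold changed it by 6.17 on the log2 scale in WT and by 2.39 in HY, a difference of −3.78 (SE 0.57, edgeR adjusted p = 0.0113). Of the 6 hormone genes tested none met the threshold for such a difference by edgeR (0 of 6), with *Wnt4* at 1.00 (SE 0.39) and an unadjusted p under 0.05.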

How the results depend on the processing

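The call of *Wnt4* by cold in WT held in all 22 alternatives. The number of all genes called also moved with the setting, so the counts of members that follow are not read on their own. Leaving out each library, all genes called ran from 1901 to 3400 by cold in WT and from 7 to 664 by cold in HY. Between genotypes they ran from 26 to 363 at 30°C and from 344 to 1240 at 8°C. By cold in WT, 1 member was called, against 4 with library totals alone, 3 with the replicate block, 2 without a filter, 2 with only the libraries of the comparison, 2 without both libraries that stood apart (added after the data were seen) and 1 to 2 leaving out each library. By cold in HY it was 0, against 1 without a filter, 1 without both libraries, 1 with DESeq2 and 0 to 0 leaving out each library, and 0 with the replicate block. Between genotypes at 30°C it was 0, against 3 without a filter, 3 with the replicate block, 1 without both libraries, 2 with DESeq2 and 0 to 1 leaving out each library (1 without WT replicate 2, WT replicate 3 or HY replicate 2). At 8°C it was 2, against 1 with library totals alone, 1 where each library had to hold 10 counts, 1 with both strands and 1 to 2 leaving out each library. The labels do not say whether same-numbered libraries share more than a number. The difference of cold responses gave 0 members throughout.

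Directions turned for small values. *Esr1* in HY at 30°C was −0.060 with library totals and −0.11 without both libraries, and ran from −0.23 (without HY replicate 3) to 0.29 leaving out each library, with −0.14 without WT replicate 3. *Wnt4* in HY at 8°C was 0.038 with library totals and ran from −0.20 to 0.017 (without HY replicate 3 or WT replicate 3) leaving out each library. Leaving out each library, the cold difference in HY ran from −0.13 (without HY replicate 3 at 8°C) to 0.45 for *Esr1*, from −0.59 to 0.16 for *Pgr* and from −0.50 to 0.24 for *Prlr*, the upper ends of *Pgr* and *Prlr* without HY replicate 2 at 30°C. The difference of cold responses of *Greb1* ran from −6.65 to 0.79, the latter without HY replicate 2 at 30°C. The cause was not tested.

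Genes called in all by cold in WT were 2854, and 5190 with library totals, which moved the median of all genes from −0.07 to −0.41. By cold in HY they were 41, and 664 without HY replicate 3 at 30°C, 150 without a filter, 160 with the replicate block, 310 with DESeq2, 0 with only its libraries and 846 without both libraries. At 30°C they were 166, and 567 without a filter, 514 with the replicate block, 669 with DESeq2, 42 with library totals and 0 with only its libraries. At 8°C they were 980, and 1616 with only its libraries. The difference of cold responses gave 370, and 809 with DESeq2 and 67 to 651 leaving out each library. Counts of 0 to 3 in *Esr2* allow no comparison.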
